A study of Drosophila melanogaster with 6 samples.

Results

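The genes described here are 10 genes of the Notch signaling pathway, namely N, Dl, Ser, sca, Su(H), H, fng, neur, mam and numb, out of 17684 annotated genes on 2L, 2R, 3L, 3R, 4 and X. Every deposited ChIP-seq peak that overlapped the annotated span of one of these genes, or the 1000 bp on either side of it, was collected. This gave 56 of the 22108 CAP-D3 peaks and 13 of the 3915 IgG peaks. The genes were listed by pathway and not by their peaks, but with earlier results of these data known.

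CAP-D3 was immunoprecipitated from Drosophila S2 cells, an embryonic cell line that the sample labels call S2R+ and assign to the Oregon R strain, without any knockdown or treatment. The labels list 6 samples, which are 2 of CAP-D3 ChIP with the antibody YZ384, 2 of ChIP with normal rabbit IgG and 2 of input chromatin, which was not precipitated. The paper reports more ChIP experiments per antibody than the labels list, and this difference could not be resolved here. The authors called peaks against input with MACS and deposited 1 list for CAP-D3 and 1 for IgG. No value of a single sample is in the lists, so the counts below carry no error between experiments, no comparison of conditions can be tested, and library depth is unknown.

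Notch signaling passes between touching cells. The ligands Delta and Serrate on 1 cell bind the receptor Notch on its neighbor, the receptor is cleaved, and its intracellular part enters the nucleus, where it joins the DNA-binding protein Suppressor of Hairless and the coactivator Mastermind to switch on target genes. In the fly wing the pathway sets the wing margin and limits the width of veins. CAP-D3 is a subunit of Condensin II, a complex that folds chromosomes in mitosis and interphase.

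All 10 genes held at least 1 CAP-D3 peak of any score. The same was true of 55.7% of all genes, and of 77.7% of the 4291 other genes with spans between those of the shortest and the longest of the 10. The score is −log10 of the p-value or q-value that MACS gave each peak, and which of these it is was not known. A score of 10 or more was taken as the threshold for the stronger peaks. The paper counted its CAP-D3 binding sites at a p-value whose −log10 is 10, so peaks below the threshold need not be among those sites. At this threshold 24 of the 56 CAP-D3 peaks were left (42.9%, against 41.8% of all CAP-D3 peaks on the 6 chromosomes), in 7 of the 10 genes (33.1% of all genes and 53.9% of genes in the same span range). The exceptions were N, fng and neur. With a flank of 5000 bp in place of 1000 bp, fng had 1 such peak and neur 2, so that 9 of the 10 genes held one and N alone did not. A wider flank takes in more sequence at every gene, and the shares of other genes were not computed at 5000 bp. The 10 genes are long, with a median span of 22.8 kb against 1.71 kb for all genes, and their median number of such peaks was 2, against 0 for all genes. The longest gene, mam, held 8 of the 24 peaks, and Ser and sca held 4 each, Dl 3, Su(H) and numb 2 each and H 1. IgG peaks lay at 6 of the 10 genes (14.2% of all genes, 29.8% in the same span range), and an IgG peak scoring 10 or more lay at fng and at mam alone (3.54% of all genes, 7.88% in the same span range). From a score of 20 upward, a single CAP-D3 peak in sca was left (2.69% of all genes held such a peak, and 5.48% in the same span range).

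**Figure D1:**
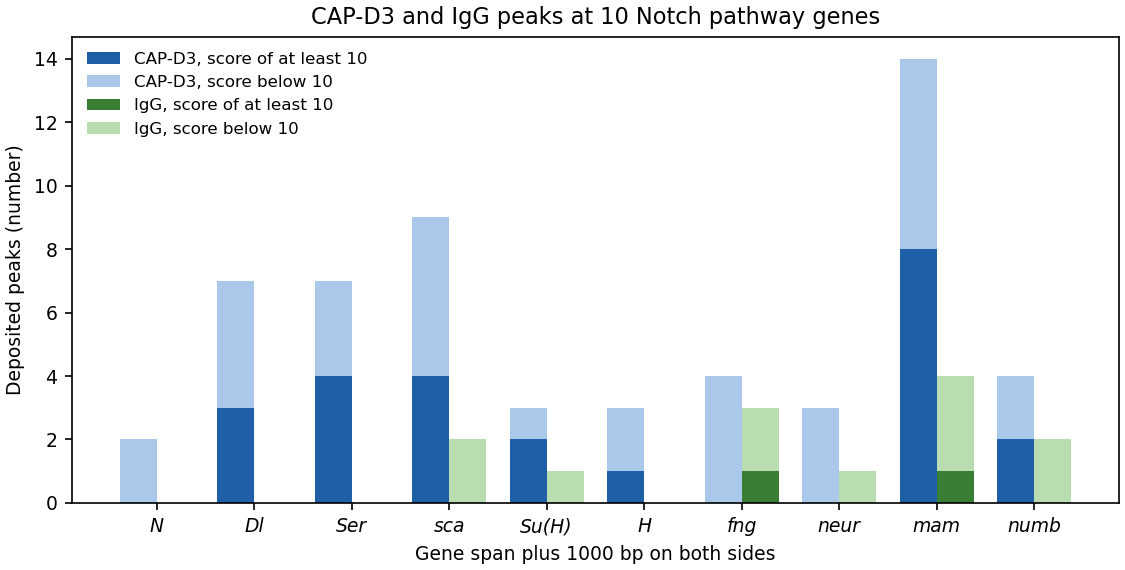
Number of deposited CAP-D3 peaks (blue) and IgG peaks (green) per gene, counted over the gene span plus 1000 bp on both sides; dark parts are peaks scoring 10 or more. The tallest CAP-D3 bar is mam with 14 peaks, 8 of them dark, whereas N, fng and neur have no dark CAP-D3 part, and N, Dl, Ser and H have no IgG bar.

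The receptor gene N, which lies on X, held 2 weak CAP-D3 peaks. They extend from 3159779 to 3160049 with a score of 5.48 and from 3168676 to 3169168 with a score of 5.58. Of the whole CAP-D3 list on these chromosomes, 87.9% and 87.1% scored higher. Both lie toward the higher-coordinate end of the gene, and none has a midpoint in the first 25.04 kb from the lower-coordinate end. No IgG peak lay in N, and the nearest one was 629378 bp away. X is sparse in both lists, since 22% of its 2705 genes held a CAP-D3 peak of any score, 6.88% one scoring 10 or more and 1.74% an IgG peak. Among the 55 other genes of X with spans within 25% of that of N, 27.3% held a CAP-D3 peak scoring 10 or more, against 77.1% of the 371 genes of this length on all 6 chromosomes.

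Both ligand genes held 7 CAP-D3 peaks and no IgG peak. In Dl, which encodes the ligand Delta and lies on 3R, the scores were 9.63, 6.81, 9.34, 10.18, 9.73, 17.37 and 10.26 in the order of coordinates. A single peak thus stood out, MACS peak 17749 from 19317422 to 19317726 (305 bp), and only 5.27% of the list scored higher. The other 2 above the threshold, from 19312372 to 19312648 and from 19321096 to 19321377, scored 10.18 and 10.26, and 3 of the 4 below the threshold had scores above 9. The peaks were spread over the gene, with midpoints from 3.07 to 18.5 kb of its 23.5 kb and 0.93 to 4.13 kb between neighbors. The first of them, from 19305313 to 19306281, was 969 bp wide.

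In Ser, which encodes the ligand Serrate and also lies on 3R, the 7 peaks had scores of 4.43, 7.83, 9.07, 13.37, 12.25, 13.56 and 12.63. The 4 above the threshold follow one another and extend from 27176885 to 27177579, from 27178782 to 27179093, from 27180483 to 27180848 and from 27182759 to 27183013. Their scores differed by less than those of the peaks in Dl, and none reached that of MACS peak 17749. All 7 midpoints lay between 1.03 and 10.8 kb from the lower-coordinate end, so that the other 11.4 kb of the 22.2-kb span held none. The IgG peak nearest to any of them was 24.78 kb away in Ser and 21.73 kb away in Dl.

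**Figure D2:**
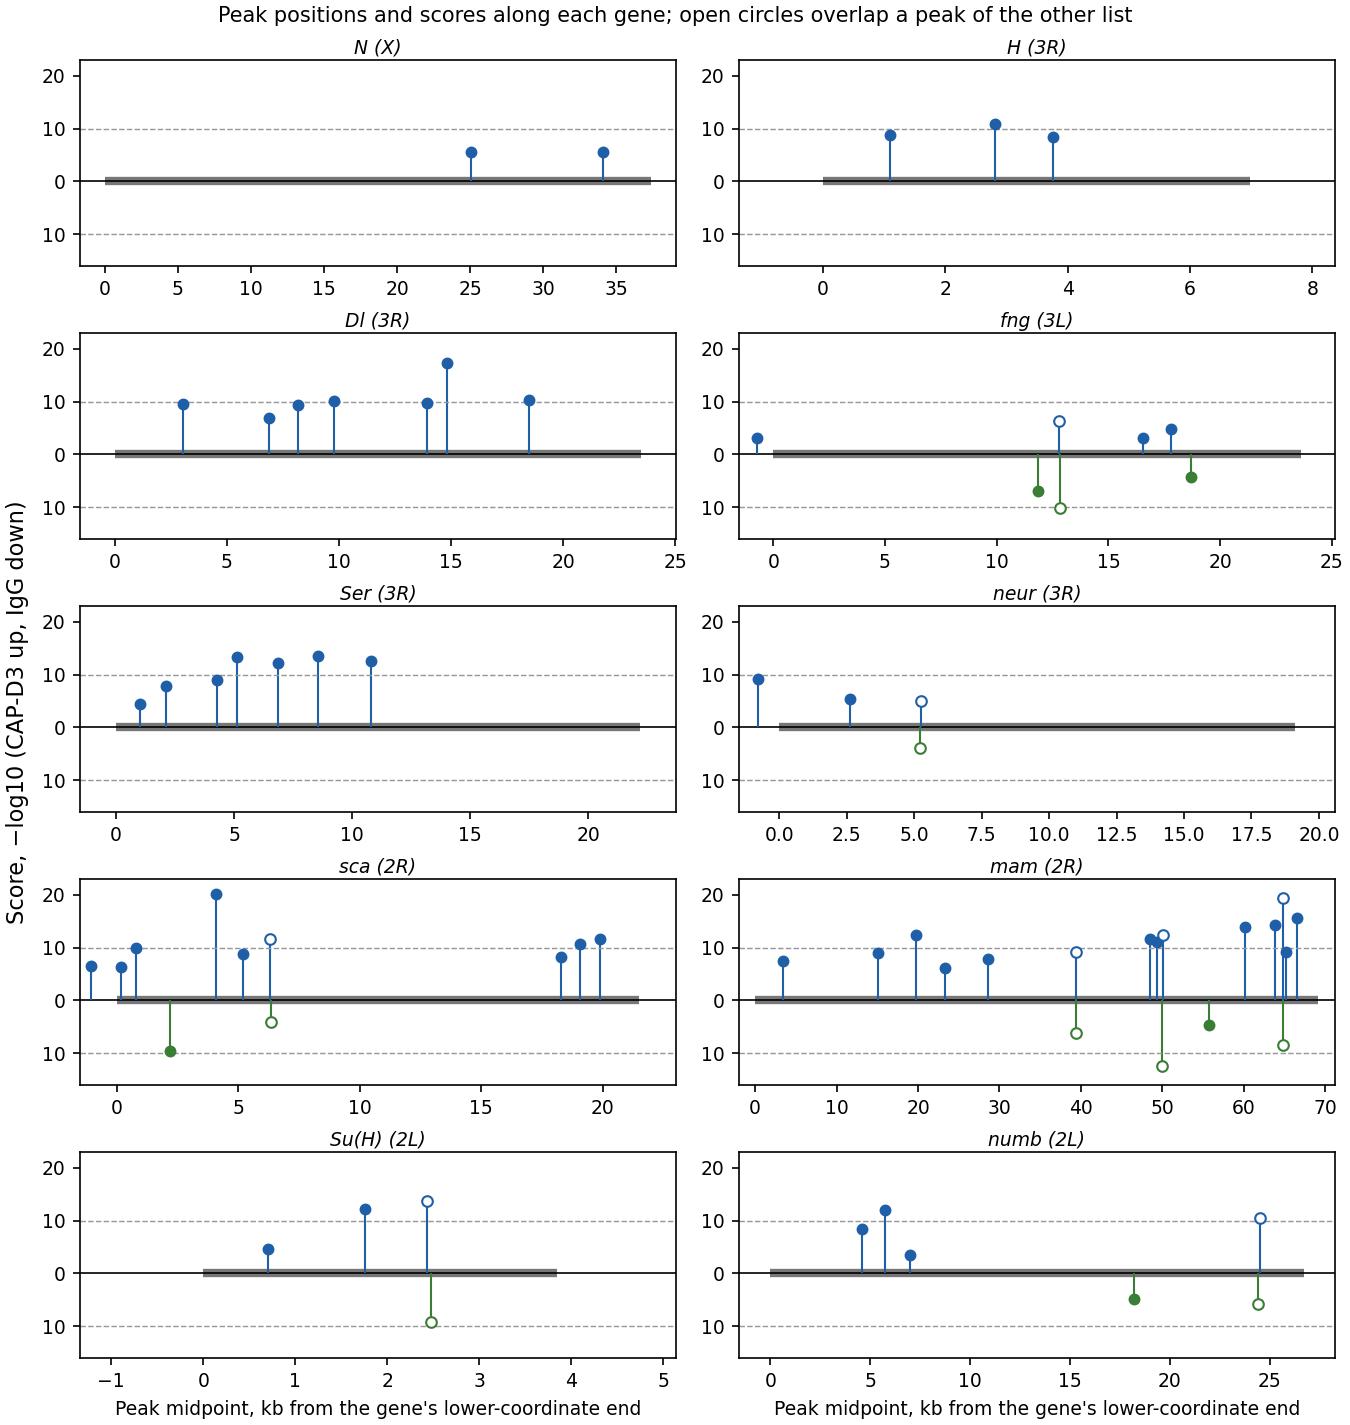
Midpoint of each peak in kb from the lower-coordinate end of the gene (x axis) and its score as −log10 (y axis, CAP-D3 upward in blue, IgG downward in green), with 1 panel per gene; gray bars are gene spans, dashed lines mark a score of 10, and open circles mark peaks that overlap a peak of the other list. The 7 peaks of Ser all lie between 1.03 and 10.8 kb, those of sca form groups toward its ends with midpoints at least 11.96 kb apart, and the highest score in mam, 19.35, belongs to a peak that overlaps an IgG peak.

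Within the flanks of 1000 bp, neither fng nor neur held a CAP-D3 peak above the threshold. The gene fng encodes Fringe, a glycosyltransferase that modifies Notch in the Golgi and biases it toward Delta. Its 4 CAP-D3 peaks on 3L had scores of 3.1, 6.39, 3.09 and 4.75, all below the list median of 9.16. The strongest of them, from 20938423 to 20938919, contained a whole IgG peak of 326 bp, from 20938546 to 20938871, with the higher score of 10.15. Another 2 IgG peaks in fng, with scores of 6.88 and 4.28, overlapped no CAP-D3 peak and lay 543 and 502 bp from the nearest one. Of the 10 genes, fng was the one in which the highest IgG score exceeded the highest CAP-D3 score.

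The gene neur encodes Neuralized, a ubiquitin ligase that promotes the endocytosis of Delta. Its 3 CAP-D3 peaks on 3R had scores of 9.26, 5.46 and 5.07. The strongest, from 9019426 to 9019701, lay outside neur and over the neighboring gene tgo, so it was counted only because of the flank. The second, from 9022528 to 9023386, also lay over the antisense RNA gene asRNA:CR31429, and the third, from 9025371 to 9025822, contained an IgG peak of 293 bp with a score of 3.97. The 13.9 kb from its midpoint to the higher-coordinate end of the 19.1-kb span held no other CAP-D3 peak.

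The strongest peak at any of the 10 genes lay in sca. This gene encodes Scabrous, a secreted protein that modulates Notch signaling and helps to space sensory bristles and ommatidia, and its regulatory sequences are the source of the sca-GAL4 driver used in the study. Its 9 CAP-D3 peaks on 2R had scores of 6.44, 6.3, 9.96, 20.11, 8.75, 11.55, 8.16, 10.75 and 11.57. MACS peak 6312, from 12784474 to 12784778, had the score of 20.11, and 2.17% of the list scored higher. It lay 1612 bp from the nearest IgG peak. The peaks of sca fell into a group of 6, from 1.05 kb outside the lower-coordinate end to 6.32 kb inside the gene, and a group of 3 between 18.28 and 19.89 kb, with 11.96 kb between the nearest midpoints. In the first group, the peak from 12786707 to 12787013 (score 11.55) contained an IgG peak of 283 bp with a score of 4.12. The other IgG peak of sca had a score of 9.57 and overlapped no CAP-D3 peak. MACS peak 6312 and another 3 peaks also lay over the antisense RNA gene asRNA:CR45137, so peaks in that stretch cannot be assigned to either gene.

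Of the genes that act in the nucleus, Su(H) and mam had CAP-D3 peaks over IgG peaks and H had none. Su(H), which encodes the DNA-binding protein of the pathway, spans 3.8 kb on 2L and is the shortest of the 10. Its 3 CAP-D3 peaks, with scores of 4.6, 12.28 and 13.68, covered 24.5% of the span, the largest share among the 10 genes. The peak with the score of 12.28, from 15041120 to 15041369, was 431 bp from the nearest IgG peak. The peak with the score of 13.68, from 15041695 to 15042136, contained an IgG peak of 330 bp with a score of 9.27.

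H encodes Hairless, which holds Su(H) in a repressing state, and it spans 7.0 kb on 3R. Its 3 CAP-D3 peaks had scores of 8.86, 10.94 and 8.43 and covered 23.9% of the span. The peak above the threshold, from 20624626 to 20624885, was 260 bp wide, whereas the next one, from 20625226 to 20626192, was 967 bp wide with a lower score. No IgG peak lay at H, and the nearest was 3.25 kb from any of its peaks.

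The gene mam encodes the coactivator Mastermind, spans 69.2 kb on 2R and held 14 CAP-D3 peaks, of which 8 reached the threshold. The scores of these 8 were 12.48, 11.64, 11.07, 12.44, 13.94, 14.39, 19.35 and 15.67 in the order of coordinates, and those of the other 6 were between 6.23 and 9.27. The strongest peaks were crowded toward the higher-coordinate end, where the last 10 kb of the span held 5 peaks, 4 of them above the threshold. MACS peak 6659, from 14055869 to 14056182, had the highest score in mam, 19.35, and 2.72% of the list scored higher, but it contained an IgG peak of 265 bp with a score of 8.42. The peak from 14057440 to 14058093 had a score of 15.67 and lay 1264 bp from the nearest IgG peak. Another 3 followed one another closely, from 14039174 to 14040295, from 14040376 to 14040762 and from 14041147 to 14041519, with midpoints between 48.53 and 50.13 kb. The last of these shared 278 bp with an IgG peak whose score of 12.43 was nearly the same as its own 12.44. In all, 3 of the 14 CAP-D3 peaks overlapped an IgG peak, and 1 of the 4 IgG peaks of mam stood alone, with a score of 4.72.

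The gene numb encodes a membrane-associated inhibitor of Notch that is inherited by 1 daughter cell in asymmetric divisions. It spans 26.7 kb on 2L and held 4 CAP-D3 peaks with scores of 8.39, 12.12, 3.53 and 10.46. The peak from 9443053 to 9443377 (score 12.12) lay 6670 bp from the nearest IgG peak. The peak from 9461621 to 9462361 (score 10.46) contained an IgG peak of 335 bp with a score of 5.81. The midpoints of the third and the fourth peak were 17.51 kb apart, and an IgG peak with a score of 4.89 lay between them.

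The overlap with the control list was near that of the whole CAP-D3 list. Of the 56 CAP-D3 peaks, 8 overlapped a deposited IgG peak by at least 1 bp, a share of 14.3% (95% Wilson interval 7.42 to 25.7%, counting error only), against 13.9% of all 22059 CAP-D3 peaks on the 6 chromosomes. Of the 24 peaks scoring 10 or more, 5 did so, or 20.8% (9.24 to 40.5%), against 16.7% of all 9215. They lay in sca, Su(H) and numb, with 1 each, and in mam with 2. Seen from the control, 8 of the 13 IgG peaks overlapped a CAP-D3 peak, or 61.5% (35.5 to 82.3%), against 79.2% of all 3899. The other 5 lay in fng, sca, mam and numb. Of the 7 genes with a CAP-D3 peak above the threshold, 3 (Dl, Ser and H) held no IgG peak, against 52.4% of the 2312 other genes in the same span range that held such a CAP-D3 peak. Without the peaks over IgG peaks, 19 CAP-D3 peaks scoring 10 or more were left, and the number of genes that held one was still 7. Both lists were called against input, and the overlap that a shared input gives by itself was not tested.

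The scores of the 56 peaks were close to those of the whole list. Their median was 9.3, against 9.16 for all CAP-D3 peaks on the 6 chromosomes, and 30 of the 56 were above that median. Their highest score was 20.11, against 117.54. The threshold fell in a dense part of the range, with 8 peaks between 9 and 10 and 5 between 10 and 11. The peak just inside was that of Dl at 10.18 and the peak just outside was that of sca at 9.96. The median length was 346.5 bp (250 to 1122 bp), against 324 bp (250 to 2395 bp) for all peaks. Of the 56, 12 were 500 bp or wider, and the share of such peaks in the whole list was not computed.

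Longer genes hold more peaks, so each gene was set beside all other genes with a span within 25% of its own. By this measure 7 of the 10 genes had more CAP-D3 peaks scoring 10 or more than the median gene of their length, and 3 had fewer. For Su(H), 13.0% of 2027 such genes had at least its 2 peaks. For sca, 16.2% of 543 had at least 4, for Ser, 17.2% of 523 had at least 4, and for mam, 18.7% of 182 had at least 8. The counts of Dl (30.8% of 497 with at least 3), H (47.6% of 1228 with at least 1) and numb (49.0% of 433 with at least 2) were nearer the middle. Genes of the same chromosome arm alone gave higher shares for sca (27.1% of 96), Ser (27.9% of 122), mam (28.6% of 42), Dl (47.3% of 112), H (61.8% of 293) and Su(H) (15.1% of 385), and a lower one for numb (42.7% of 82). None of these 7 genes was thus alone in its count among genes of its length. With the flank of 1000 bp, fng and neur held no such peak, while 64.6% of 491 genes of the length of fng and 61.9% of 586 of the length of neur held at least 1. On the same arm these shares were 72.3% of 94 for fng and 83.3% of 132 for neur. With the flank of 5000 bp, fng held 1 such peak and neur 2. The shares of other genes were not computed at that flank. Counted with that flank, 8 of the 10 genes were at or above the median of genes of their length, against 7 with the flank of 1000 bp. This count includes genes equal to the median, and the number above it was not computed at 5000 bp.

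**Figure D3:**
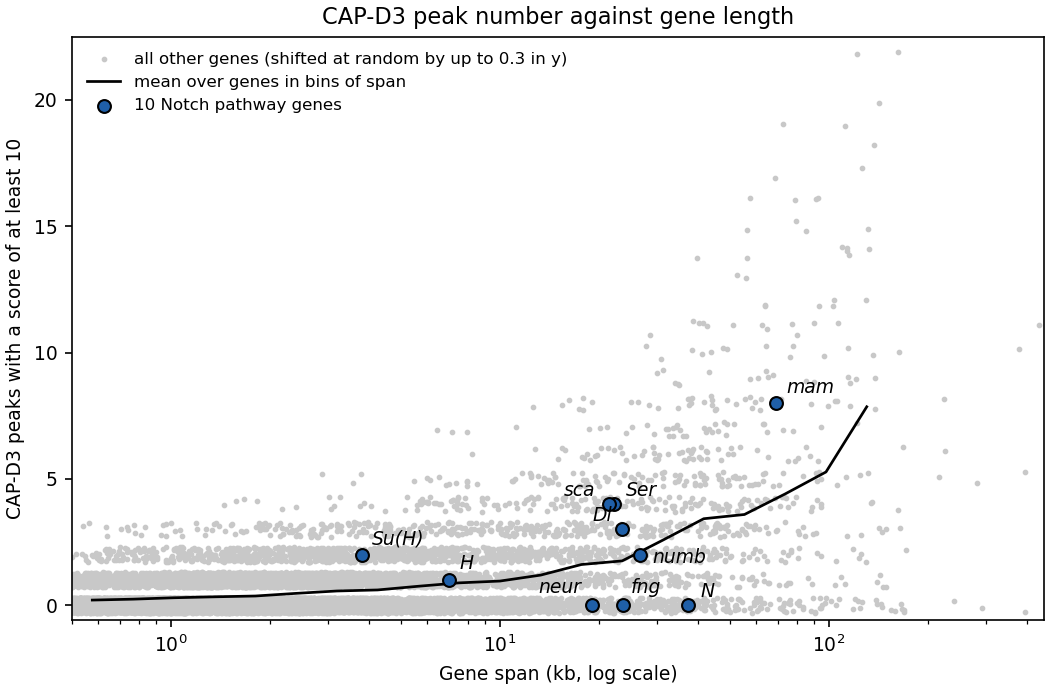
Number of CAP-D3 peaks scoring 10 or more (y axis) against gene span in kb on a log scale (x axis, from 0.5 kb) for the 10 Notch pathway genes (blue) and all other genes (gray), with the mean over bins of span (black line). The points of mam (8 peaks), Ser and sca (4 each), Dl (3) and Su(H) (2) lie above the line, and those of N, fng and neur lie on 0.

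Added over the 10 genes, the 24 peaks compared with 19.0 for the sum of the means of genes of similar length, and with 21.5 when these were taken from the same chromosome arm. For every deposited CAP-D3 peak the values were 56, against 45.7 and 51.0. For the IgG list they were 13, against 8.2 and 9.0, so the sum for the control antibody also lay above both means. Per 10 kb of gene and flank, the 10 genes held 0.876 CAP-D3 peaks scoring 10 or more (exact Poisson interval 0.561 to 1.3, counting error only), against 0.751 for the windows of all genes. Without N the value was 1.02 (0.656 to 1.52), against 0.906 for the genes of 2L, 2R, 3L and 3R, and both intervals include the value of the other genes.

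**Figure D4:**
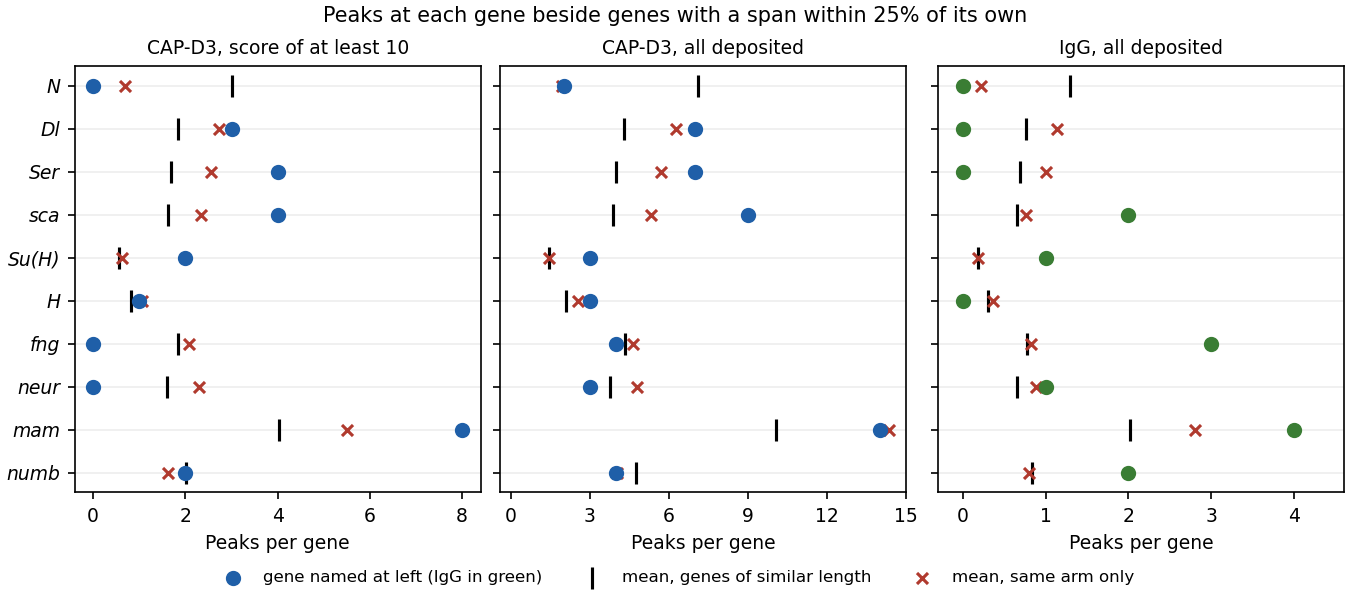
Peaks per gene (x axis) for each of the 10 genes (circles), beside the mean of genes with a span within 25% of its own on all arms (bars) and on the same arm (crosses), for CAP-D3 peaks scoring 10 or more (left), all CAP-D3 peaks (middle) and all IgG peaks (right). With 4 CAP-D3 peaks in the left panel, Ser lies to the right of its means of 1.68 and 2.56, whereas with 3 IgG peaks in the right panel fng lies to the right of its means of 0.77 and 0.82.

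Dl and Ser each held 7 CAP-D3 peaks of any score and no IgG peak. At least 7 CAP-D3 peaks lay at 25.8% of 497 genes of the length of Dl, and at 42.0% of 112 on 3R. For the length of Ser, they lay at 22.8% of 523 genes, and at 36.1% of 122 on 3R. Among 128 genes of the length of Dl that held at least 7 CAP-D3 peaks of any score, 22.7% held no IgG peak, and on 3R the share was 14.9% of 47. For Ser these shares were 22.7% of 119 and 13.6% of 44. For fng, 6.52% of 491 genes of its length held at least its 3 IgG peaks. These genes were singled out after their values had been seen, and many of the same genes stand behind the shares of Dl and Ser.

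Of the 56 CAP-D3 peaks, 53 lay wholly within a gene span, 3 lay in a flank and none crossed a gene end. The spans make up 92.7% of the length of the windows. All 24 peaks scoring 10 or more lay within a span, and none of their midpoints was within 1000 bp of a gene end, while 5 of the 56 midpoints were. The stretches within 1000 bp of a gene end make up 14.6% of the windows. The share of midpoints in such stretches was not computed for the whole list. Within 150 bp of a member end lay 0 of the 56 midpoints, and 2.76% of all 22059 midpoints lay that near any gene end. After shifts of 500 to 2000 bp the latter share was 7.97 to 8.94%, so the whole list was sparse within 150 bp of gene ends. These shares do not bear on the stretches of 1000 bp, and they also served to infer the assembly. By midpoint, 30 of the 53 inside a gene lay on the side of its lower coordinate and 23 on that of its higher coordinate. Strand, exons and transcript starts were not used here, so whether a peak is exonic, intronic or near an internal promoter was not analysed here.

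The other genes of the pathway were taken from a list of 39 genes, of which all were found in the annotation. CAP-D3 peaks of any score lay at 28 of them (60% of the other genes in their span range) and peaks scoring 10 or more at 20 (35.8%). IgG peaks lay at 13 (15.3%). Together they held 71 CAP-D3 peaks. Of these 71, 27 scored 10 or more, against 41.8% of all CAP-D3 peaks on the 6 chromosomes. Of the same 71, 17 overlapped an IgG peak, a larger share than the 13.9% of all CAP-D3 peaks. Only kuz and skd had 3 peaks above the threshold, the number fixed for naming a gene. The gene kuz encodes the metalloprotease Kuzbanian that cleaves Notch, spans 89.3 kb and held 9 CAP-D3 peaks with a highest score of 15.15, 2 of them over an IgG peak. The gene skd, which encodes a subunit of the Mediator kinase module, spans 34.6 kb and held 6 with a highest score of 16.04, 2 of them over an IgG peak.

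The groups by role are small and differ in gene length, so each count is given beside the share of other genes in the span range of its group. A CAP-D3 peak scoring 10 or more lay at 4 of the 5 genes for transcriptional cofactors (58.8%), 3 of the 6 for receptor cleavage (40.2%) and 3 of the 7 for trafficking and ubiquitylation (48.4%). It lay at 2 of the 3 genes for receptor glycosylation (28.6%) and 1 of the 2 for asymmetric division (42.9%). The roles were not compared by a test. The target gene ct, which encodes the homeodomain protein Cut and lies on X, held a single CAP-D3 peak, with a score of 7.83. The 11 listed genes of the E(spl) complex on 3R are the best known targets of Notch and encode bHLH repressors and Bearded-family proteins. They span 676 to 1305 bp each and together held 12 CAP-D3 peaks, 5 of which scored 10 or more. Such peaks lay at 5 of the 11 genes, against 30.3% of 892 other 3R genes in this span range, and their highest score was 18.75. IgG peaks lay at 4 of the 11 genes (14.2% of all genes), and 3 of the 12 CAP-D3 peaks overlapped one (13.9% of all CAP-D3 peaks). Unlike the share of 30.3%, these 2 shares were not matched for arm or gene length. Because the flanks of the small neighboring E(spl) genes overlap, their 12 CAP-D3 peaks gave 13 counts, whereas those scoring 10 or more were counted once within the complex. However, 1 E(spl) gene and 1 cofactor gene on 3R each held a single peak scoring 10 or more, with the same score of 16.45. Over all 39 genes, 28 counts of peaks scoring 10 or more stood for 27 peaks. Of the 4 listed Bearded-family genes on 3L, 2 held such a peak, against 21.5% of 4090 other genes of all arms in their span range. These 4 genes held 2 CAP-D3 peaks in all, and 1 of them, with a score of 18.59, overlapped an IgG peak.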

How the data were processed

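The members and gene lists were chosen with earlier results of these data known. Chromatin had been cut with micrococcal nuclease before ChIP-seq. Both files were peak lists with a score per peak, the −log10 of the p-value or q-value that the authors obtained from MACS against input. Which of these it is, and how the experiments were combined, is not given in the sources used here. The submitters' processing notes name CASAVA 1.4, Trim Galore 0.3.7, cutadapt 1.8, FastQC 0.11.3, Bowtie 1.0.0 and MACS2 2.0.9.

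Peak starts were converted to count from 1. Gene spans came from RefSeq (Release 6 plus ISO1 MT), where Dl is named Delta. The files name no assembly, but sequence ends fitted Release 6, and 2.76% of CAP-D3 midpoints lay within 150 bp of a gene end, against 7.97 to 8.94% after shifts of 500 to 2000 bp. As the assembly was inferred, gene coordinates are not printed, and no genome sequence was used. Peaks were assigned by an overlap of at least 1 bp with the span plus 1000 bp. Genes of similar length, without the 10 members, had spans within 25%. No test was made, since each antibody has 1 list. Wilson and exact Poisson intervals (95%) treat peaks as independent. All 10 members are named, other pathway genes when they held at least 3 CAP-D3 peaks scoring 10 or more. Counting was tested on simulated data. Intervals used scipy 1.17.1, tables pandas 2.3.3 and numpy 2.4.6, figures matplotlib 3.10.9, all in Python 3.11.15.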

Additional observations from a re-analysis of the deposited data

How the results depend on the processing

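No paired analysis was possible because the peak lists hold no values of single experiments, and for the same reason no replicate could be left out. Of 43 recomputed values, 33 stayed within 1.5 times the reported count or within its counting interval, and 10 did not. The threshold moved most. With every deposited CAP-D3 peak the 10 genes held 56 peaks, or 2.04 per 10 kb, and from a score of 20 upward they held 1 peak in 1 gene, or 0.0365 per 10 kb, and 0% of it overlapped an IgG peak. With a flank of 5000 bp the counts were 87 for all CAP-D3 peaks and 43 for scores of 10 or more, and fng and neur then held 1 and 2 such stronger peaks. Counting only IgG peaks scoring 10 or more left 2 at the 10 genes and 4.17% of the CAP-D3 peaks overlapping one. Leaving out the flank, assigning peaks by midpoint, and 4 alternatives chosen after seeing the data (without peaks over IgG peaks, without mam, without N, similar genes of 2L, 2R, 3L and 3R) stayed within these limits. The number of genes at or above the median of genes of similar length was 7 to 10 over its alternatives, with ties included. The 10 came from a score of 20 upward, where that median is 0. With every deposited CAP-D3 peak, 9 genes were at or above the median but only 6 above it. With similar genes of the same arm, the 8 genes included N and H, whose counts of 0 and 1 equaled their medians.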
